A study of Mus musculus with 6 samples.

Results

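The genes described here mark the surface ectoderm, the thin epithelium that covers the limb bud, and the junctions that hold its cells together. A gene list of 34 names was matched to the probe sets whose annotation gives exactly 1 symbol, and where a gene had several probe sets, the brightest on average over the 6 arrays stood for it. All 34 were found, among 18193 genes tested, so no member was lost to a filter on low values. The study measured messenger RNA in the proximal 500 µm of mouse hindlimb buds at stage E11.5, to find genes controlled by LMX1B, a LIM homeodomain factor of dorsal limb mesenchyme. There were 3 Lmx1b-/- pools and 3 wild-type pools. Both groups are of strain 129Sv and untreated, and each pool combined both hindlimb buds of 3 embryos, 6 buds in all. The sources used here do not state the form of the Lmx1b allele, the sex of the embryos or whether the groups were littermates.

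The surface ectoderm of the limb bud begins as simple epithelium with keratins 8, 18 and 19 and then stratifies under p63, when keratins 5, 14 and 15 appear. Its cells are joined by cadherin-based adherens junctions, claudin-based tight junctions and desmosomes. Epithelial identity is upheld by the GRHL, TFAP2 and OVOL transcription factors and by the ESRP splicing regulators. Lmx1b is not an ectodermal gene: it is switched on in dorsal mesenchyme by WNT7A from the dorsal ectoderm. The list therefore reads the tissue that lies over the mesenchyme in which the mutated gene acts.

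All values are log2 RMA values, and changes are differences on that scale. The arrays correlated at 0.994 to 0.998 over all genes. Lmx1b read 4.62, 4.23 and 4.57 in Lmx1b-/- pools 1 to 3, against 8.02, 7.58 and 8.17 in wild-type pools 1 to 3, and fell 10.9-fold on these values (change -3.45, SE 0.16; limma adjusted p = 0.00026). Genes of sperm, retina, lens, milk, pituitary, pancreas, kidney and cerebellum, which a limb bud should not use, had means over the 6 pools of 2.38 to 6.15 on the same scale (21 genes). The Lmx1b-/- values of Lmx1b lie inside that range, so the fold is taken against values that may be background. A dimmer Lmx1b probe set, at 3.92 in Lmx1b-/- and 3.93 in wild-type pools, also lies inside it and differed by -0.0067. Of the ectoderm and junction genes, 15 had a mean above that range and 19 lay within it, where little of a value may be signal. The top of that range is 1 gene, Prm1, and below the next, Ins2 at 5.54, lay 10 members; probe sets differ in their own background, so the range is only a guide. The lowest member mean was that of Ovol1, at 3.55, and the highest that of Krt5, at 8.19.

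No ectoderm or junction gene passed the test between the groups, and the list as a whole lay slightly above wild type in Lmx1b-/- pools. Of the 34 genes, 26 had a positive change and 8 a negative one, with a median of 0.075, while 57.0% of all genes had a positive change and their median was 0.017. With limma, 0 of the 34 had an adjusted p under 0.05, a threshold that 0.104% of all genes passed. Of the 21 genes that a limb bud should not use, 15 (71.4%) also had a positive change, with a median of 0.062, and their score was 0.047, -0.02 and 0.061 in Lmx1b-/- pools 1 to 3, against -0.065, -0.039 and 0.016 in wild-type pools 1 to 3. At an unadjusted p under 0.05, 7 members were higher (5.92% of all genes were) and 0 were lower (3.88% of all genes were). In 8 members every Lmx1b-/- pool lay above every wild-type pool, as in 9.16% of all genes, and in 0 every pool lay below, as in 5.44%. The 95% interval of the change stayed inside a 2-fold difference in either direction for all 34 genes, and within 0.5 on the log2 scale for 29.

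The balance of signs rested on 1 wild-type pool. Without wild-type pool 1, 17 genes were higher and 17 lower, the median change was 0.0059, and the median over all genes was 0.006. In the other leave-one-out fits 21 to 31 genes were higher, with medians from 0.037 to 0.12. Dim genes as a class also lay above wild type: all genes with a mean under 4 had a median change of 0.047 and those from 4 to 6 one of 0.045, against -0.0037 for those from 6 to 8. The 16 members with a mean from 4 to 6 had a median change of 0.047, and 11 of them were positive (63.85% of all genes at that level). The 15 members with a mean from 6 to 8 had a median change of 0.11, and 14 of them were positive (48.7% of all genes at that level). Both counts are from the fit of all pools, with wild-type pool 1 included. Centred on their median, the arrays gave 23 higher and 11 lower members.

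Ectoderm content was read from each pool as the mean, over the 34 genes, of the log2 value minus that gene's mean over the 6 pools. This score was 0.12, 0.046 and -0.026 in Lmx1b-/- pools 1 to 3, against -0.18, 0.03 and 0.0049 in wild-type pools 1 to 3. Wild-type pool 1 stood lowest, Lmx1b-/- pool 1 stood highest, and the remaining 4 pools lay close together with the groups interleaved. The group means were 0.048 ± 0.075 in Lmx1b-/- pools and -0.048 ± 0.11 in wild-type pools (SD, n = 3), a difference of 0.096, or 1.07-fold. Wild-type pool 1 lay 0.2 below the mean of the other wild-type pools on the log2 scale. Fewer ectodermal cells and less of these RNAs per cell cannot be told apart in pooled tissue.

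**Figure D1:**
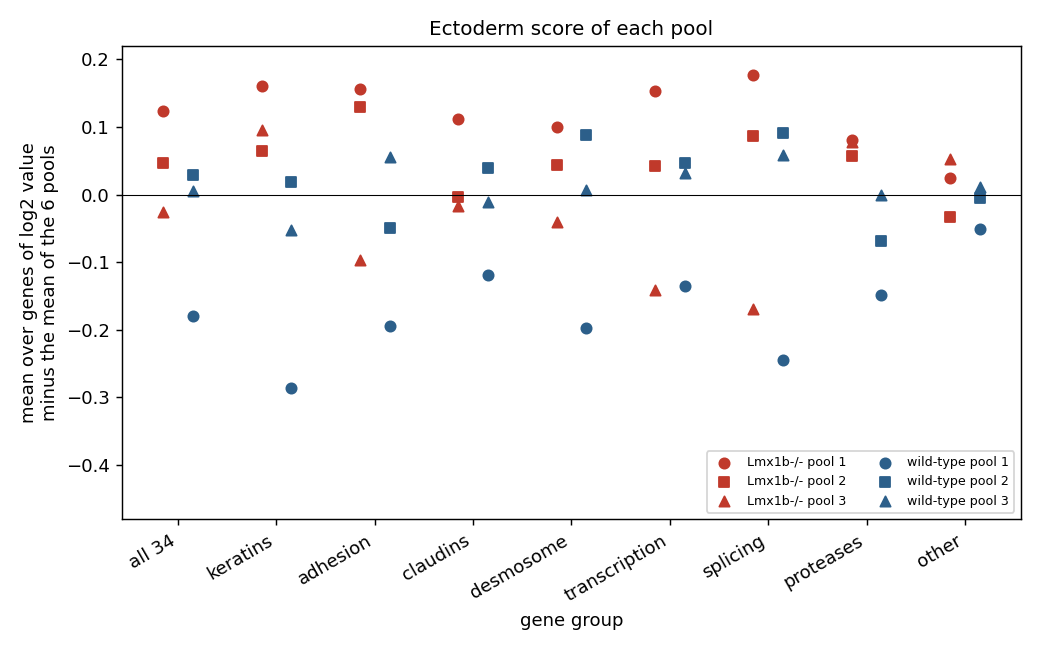
Ectoderm score of each pool (vertical axis, log2 units) for all 34 genes and for each functional group, with Lmx1b-/- pools in red left of wild-type pools in blue. Wild-type pool 1 is lowest for all 34 genes, at -0.18, and Lmx1b-/- pool 1 highest, at 0.12.

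Gene by gene, wild-type pool 1 was the lowest of all 6 pools for 20 of the 34 genes and the highest for 0, while over all genes it was lowest for 27.1%. Lmx1b-/- pool 1 was the highest for 14 members and the lowest for 0; over all genes it was highest for 22.2%. Within its own group Lmx1b-/- pool 3 was the lowest pool for 20 members (38.4% of all genes), and wild-type pool 1 for 24 (43.1% of all genes). The spread of the score within a genotype, an SD of 0.097 pooled over both groups, was as large as the difference between them.

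**Figure D2:**
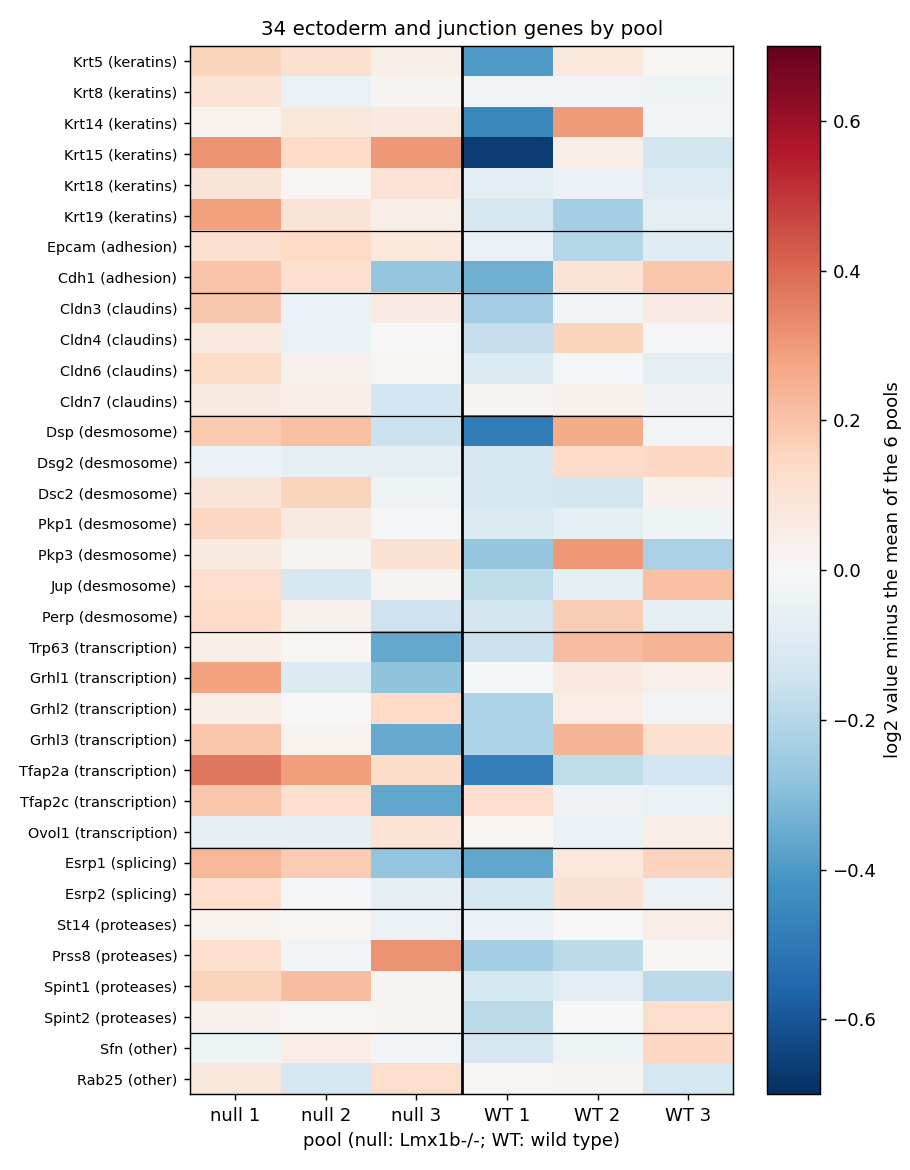
Log2 value of each of the 34 genes minus its mean over the 6 pools (colour), with Lmx1b-/- pools left of wild-type pools and genes ordered by function. Wild-type pool 1 is the lowest pool for 20 genes, and Lmx1b-/- pool 3 is low for many transcription and splicing genes.

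The promoter letters of the members were read for motifs of known regulators of epithelial genes. Windows of 18 members in the RefSeq promoter table (250 bases before to 50 after a gene start, GRCm38.p6) were searched on both strands. The E-box spelled CAGGTG, or CACCTG on the other strand, is the site bound by ZEB and SNAI repressors, which hold epithelial genes silent in mesenchyme. It lay in the window of 13 of the 18 members (72.2%), and in that of 22.9% of the 14452 tested genes with a window. Before the start alone it was found in 11 of the 18 and in 19.9% of tested genes. The TFAP2 motif GCCNNNGGC was in a window of 6 of 18 members (25.4% of tested genes) and the GRHL motif AACCGGTT in that of 0 of 18 (0.242%). Other spellings tried were the E-box core CAGGT, which contains the first motif (16 of 18 members, 52.0% of tested genes), CAGGTA (3 of 18, 11.1%) and the looser GRHL forms AACNGGTT or AACCNGTT (2 of 18, 2.30%). These are letter matches, not measured binding. Each stretch below reads 5′ to 3′ on the gene's strand, with the E-boxes in capitals. They were picked to show the E-box once before the start (Krt5, Krt18, Cldn6) and in close repeats (Rab25, Cldn7, Spint2), and at both ends of one stretch (Epcam).
Krt5, chr15:101713003-101713058, minus strand: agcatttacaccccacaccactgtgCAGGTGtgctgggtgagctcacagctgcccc
Krt18, chr15:102027977-102028032, plus strand: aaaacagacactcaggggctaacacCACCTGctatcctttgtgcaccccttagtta
Cldn6, chr17:23679247-23679302, plus strand: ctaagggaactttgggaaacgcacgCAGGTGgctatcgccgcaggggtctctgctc
Cldn7, chr11:69965299-69965394, plus strand: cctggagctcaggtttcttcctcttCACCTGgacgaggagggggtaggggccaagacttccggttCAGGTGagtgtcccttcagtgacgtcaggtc
Rab25, chr3:88548302-88548368, minus strand: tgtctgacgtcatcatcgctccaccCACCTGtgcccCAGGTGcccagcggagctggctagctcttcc
Spint2, chr7:29281978-29282076, minus strand: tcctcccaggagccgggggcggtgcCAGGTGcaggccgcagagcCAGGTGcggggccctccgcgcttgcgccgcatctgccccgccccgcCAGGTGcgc
Epcam, chr17:87635767-87635978, plus strand: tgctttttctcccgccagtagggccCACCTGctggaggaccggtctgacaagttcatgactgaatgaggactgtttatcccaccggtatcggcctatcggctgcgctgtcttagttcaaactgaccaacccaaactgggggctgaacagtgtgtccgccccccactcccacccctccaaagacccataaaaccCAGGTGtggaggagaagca

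In Krt5 the E-box begins 128 bases before the start, in Krt18 214 bases and in Cldn6 93 bases. The Cldn6 window holds another E-box that begins at base 41 after the start and is not printed. Rab25 carries 2 E-boxes that begin 64 and 53 bases before the start, and Spint2 carries 3, at 74, 55 and 9 bases. Of the list of mesenchymal genes, 1 of 8 with a window held the E-box, of the endothelial list 0 of 5 and of the muscle list 1 of 6. The TFAP2 motif lay in 5 of 8 mesenchymal, 2 of 5 endothelial and 3 of 6 muscle genes with a window. Of the 13 members with the E-box, 11 had a positive change, as had 26 of all 34 members. The largest were those of Epcam (0.22) and Krt5 (0.21), and 2 were negative, Cldn7 (-0.02) and Grhl3 (-0.09). Among members with a window but no E-box, Tfap2a (0.53), Spint1 (0.26), Krt14 (0.11) and Jup (0.02) were positive and Grhl1 (-0.06) negative. A link between the E-box and the change was not tested.

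The 6 listed keratins, intermediate filament proteins of epithelia, were all higher in Lmx1b-/- pools on average, with changes of 0.044 to 0.50. Of these 6, 0 passed the test. Of keratins outside the list, Krt7 stood at -0.21, and Krt17, Krt20 and Krt23 at 0.14, 0.12 and 0.15. Krt15, a basal-layer keratin, read 6.46, 6.29 and 6.46 in Lmx1b-/- pools 1 to 3, against 5.49, 6.19 and 6.02 in wild-type pools 1 to 3. Every Lmx1b-/- pool lay above every wild-type pool, with wild-type pool 1 far below the rest. The change was 0.50 (SE 0.17; limma adjusted p = 0.414), and 0.30 without wild-type pool 1. Krt5, which pairs with keratin 14 in the basal layer, read 8.35, 8.31 and 8.23 in Lmx1b-/- pools, against 7.80, 8.27 and 8.20 in wild-type pools. The groups overlapped, and the change of 0.21 (adjusted p = 0.609) was 0.06 without wild-type pool 1. Krt14 read 7.22, 7.28 and 7.26 in Lmx1b-/- pools and 6.75, 7.50 and 7.18 in wild-type pools, so wild-type pools 1 and 2 lay on either side of the whole Lmx1b-/- group. Without wild-type pool 1 its change turned from 0.11 to -0.08.

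The keratins of simple epithelium were not lowest in wild-type pool 1. Krt19 read 5.44, 5.24 and 5.19 in Lmx1b-/- pools, against 5.03, 4.91 and 5.09 in wild-type pools, and the groups did not overlap. Its change was 0.28 (SE 0.08; limma adjusted p = 0.375) and was 0.29 without wild-type pool 1. Krt18 read 7.03, 6.95 and 7.04 in Lmx1b-/- pools and 6.86, 6.90 and 6.85 in wild-type pools, again without overlap, with a change of 0.14 (adjusted p = 0.506). Its partner Krt8 differed by 0.04, and the other Krt8 probe sets by -0.12 and 0.03. Both Krt8 and Krt18 are also known from other simple epithelia.

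Adhesion molecules gave 1 separated gene and 1 overlapping one. Epcam, the epithelial cell adhesion molecule, read 7.45, 7.48 and 7.41 in Lmx1b-/- pools, against 7.29, 7.14 and 7.25 in wild-type pools. The pools within each group lay close together and the groups did not overlap (change 0.22, SE 0.06; limma adjusted p = 0.362). Without wild-type pool 1 the change was 0.25, and a dimmer Epcam probe set differed by 0.16. Cdh1, which encodes E-cadherin, read 6.73, 6.65 and 6.26 in Lmx1b-/- pools and 6.19, 6.63 and 6.72 in wild-type pools. In each group 1 pool was low, Lmx1b-/- pool 3 and wild-type pool 1, and the means were 6.55 ± 0.25 and 6.51 ± 0.28 (SD, n = 3).

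Claudins, the strand-forming proteins of tight junctions, differed little. Cldn6, known from early embryonic epithelia, read 6.37, 6.27 and 6.26 in Lmx1b-/- pools and 6.15, 6.23 and 6.18 in wild-type pools, without overlap (change 0.11, SE 0.06; limma adjusted p = 0.588). Cldn3 stood at 0.14, with 3 other probe sets at -0.10 to 0.10, Cldn4 at 0.01 and Cldn7 at -0.02. None of the 4 had an unadjusted p under 0.05.

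Desmosome genes, which encode the spot junctions that anchor keratin filaments, had changes of -0.11 to 0.16, and 0 of 7 passed. Dsp, desmoplakin, which links the junction to keratin, read 6.85, 6.88 and 6.52 in Lmx1b-/- pools, against 6.18, 6.93 and 6.65 in wild-type pools. Wild-type pool 1 was again the lowest, and the change of 0.16 (SE 0.18; limma adjusted p = 0.821) was -0.04 without it. The plakophilin gene Pkp1 was the separated member, at 6.32, 6.24 and 6.16 in Lmx1b-/- pools against 6.08, 6.12 and 6.15 in wild-type pools (change 0.13, adjusted p = 0.563). Of the desmosomal cadherins, Dsc2 stood at 0.14 and Dsg2 at -0.11. The 5 dimmer Dsg2 probe sets differed by 0.09 to 0.25, against the sign of the brightest, so the direction for Dsg2 is uncertain. Pkp3 stood at 0.13. Jup, plakoglobin, which adherens junctions also use, stood at 0.02, as did Perp, a p63 target needed for desmosomes.

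The transcription factors held both the largest and the most negative change of the list. Tfap2a, which encodes AP-2α, a regulator of ectoderm and neural crest that is also used in limb mesenchyme, read 6.98, 6.91 and 6.74 in Lmx1b-/- pools, against 6.14, 6.44 and 6.48 in wild-type pools. The groups did not overlap. Its change of 0.53 (SE 0.11; 95% interval 0.28 to 0.77), or 1.44-fold, had the smallest p of the 34 and did not pass over all genes (limma adjusted p = 0.19). The other Tfap2a probe sets differed by 0.57 and 0.30, and without wild-type pool 1 the change was 0.42. Its paralogue Tfap2c stood at -0.03.

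Trp63, which encodes p63, the master regulator of stratified epithelium, read 6.40, 6.38 and 6.01 in Lmx1b-/- pools, against 6.21, 6.58 and 6.60 in wild-type pools. The groups overlapped through wild-type pool 1 (change -0.20, SE 0.14; limma adjusted p = 0.671). Without that pool the change was -0.33 (adjusted p = 0.509), on the side opposite to that of most keratins. Over all pools the 3 dimmer Trp63 probe sets differed by -0.19, -0.05 and 0.04. Grhl3, a grainyhead factor of epidermal barrier formation, read 4.90, 4.73 and 4.35 in Lmx1b-/- pools 1 to 3, against 4.49, 4.94 and 4.82 in wild-type pools 1 to 3, with means of 4.66 ± 0.28 and 4.75 ± 0.23 (SD, n = 3). Grhl2, which sustains Cdh1 and claudin genes, stood at 0.13, Grhl1 at -0.06 and Ovol1, a repressor of mesenchymal genes, at -0.01. The values of Grhl1 and Ovol1 lay near the bottom of the range.

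Of the epithelial splicing regulators, Esrp1 read 6.20, 6.15 and 5.69 in Lmx1b-/- pools, against 5.60, 6.04 and 6.13 in wild-type pools. The low pools were the same as for Cdh1, and the change was 0.09 (SE 0.17; limma adjusted p = 0.902). Esrp2 stood at 0.03.

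The membrane protease system gave 2 of the 7 members with an unadjusted p under 0.05. Spint1, which encodes the protease inhibitor HAI-1, read 5.80, 5.86 and 5.66 in Lmx1b-/- pools and 5.52, 5.56 and 5.46 in wild-type pools, without overlap (change 0.26, SE 0.07; limma adjusted p = 0.33). Without wild-type pool 1 the change was also 0.26. Prss8, the gene of the membrane protease prostasin, read 4.71, 4.57 and 4.91 in Lmx1b-/- pools and 4.35, 4.41 and 4.60 in wild-type pools. The lowest Lmx1b-/- pool lay below the highest wild-type pool (change 0.28, adjusted p = 0.455). St14, the protease matriptase that HAI-1 inhibits, stood at 0.00 with an interval of -0.14 to 0.13, and Spint2, which encodes HAI-2, stood at 0.05. Of the remaining members, Sfn, the epithelial 14-3-3σ gene, stood at 0.00 and Rab25, a small GTPase of apical recycling, at 0.06.

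**Figure D3:**
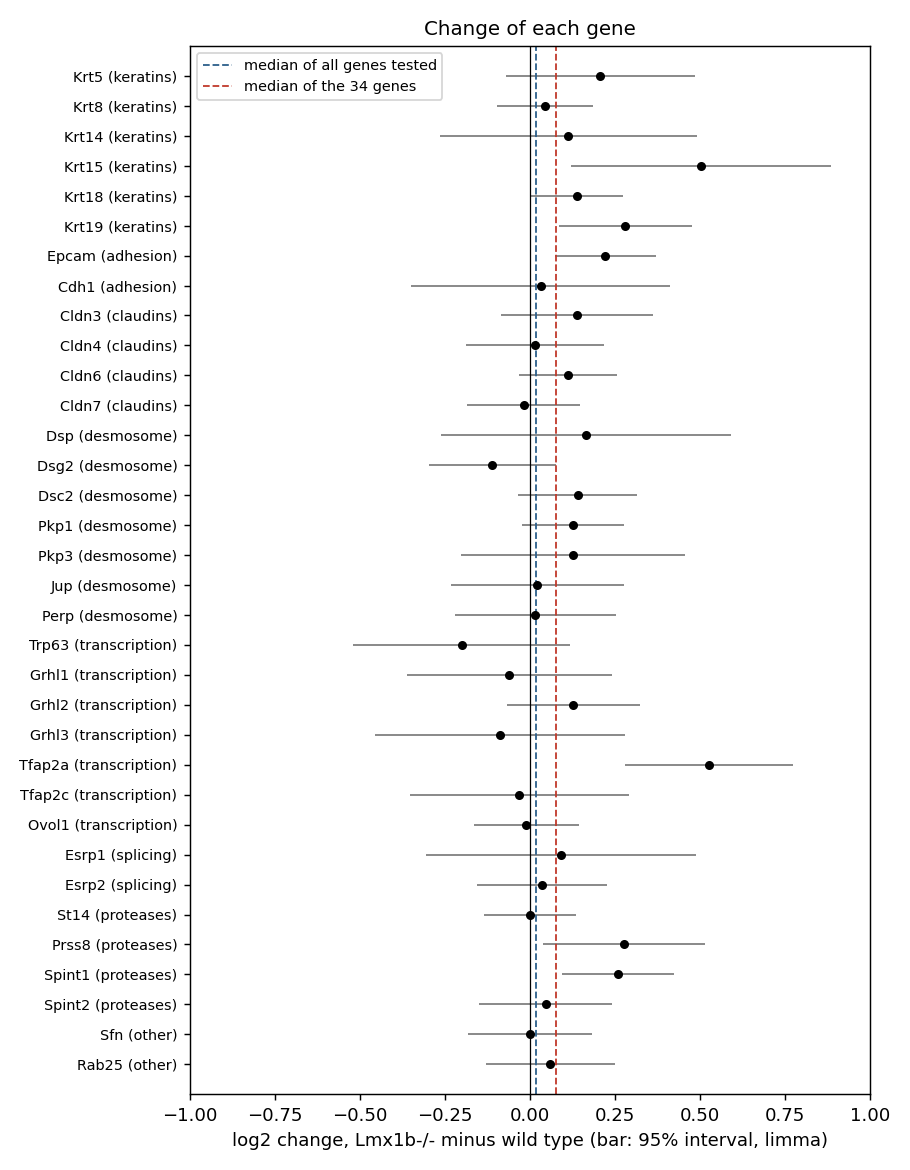
Log2 change of each gene (points, Lmx1b-/- minus wild type) with its 95% limma interval (bars), with dashed lines at the median of the 34 genes (0.075) and of all genes tested (0.017). The intervals of 7 genes exclude 0 before adjustment, and none reaches a 2-fold change.

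Over all 64 probe sets of the 34 genes, the 30 not used above ran from -0.19 to 0.57, with 24 positive and 6 negative, and the smallest adjusted p over all probe sets was 0.195, for Tfap2a. For 19 genes there was 1 probe set only.

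The ectoderm genes were correlated from pool to pool within each genotype. After each value was taken as a deviation from its group mean, which removes the genotype difference, the median Pearson r over the 561 pairs of members was 0.40, and 73.1% of pairs were above 0. Over all 165483528 pairs of tested genes the median was 0.022 and 51.3% were above 0. For further lists described below, the median was 0.66 among 12 hemidesmosome and basement membrane genes and 0.097 among 25 other junction genes. It was 0.19 among 14 mesenchymal and 0.21 among 10 muscle genes, so correlation within a list was not particular to the members. Among genes with a mean of at least 5 the medians were 0.48 for 28 members and 0.054 for all. These values rest on 6 arrays that every pair shares, and without wild-type pool 1 the median r of the members was 0.27. Each member was also set against the mean of the other 33. That r was above 0 for 31 members and above 0.6 for 19, highest for Tfap2a (0.97) and lowest for Ovol1 (-0.54).

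**Figure D4:**
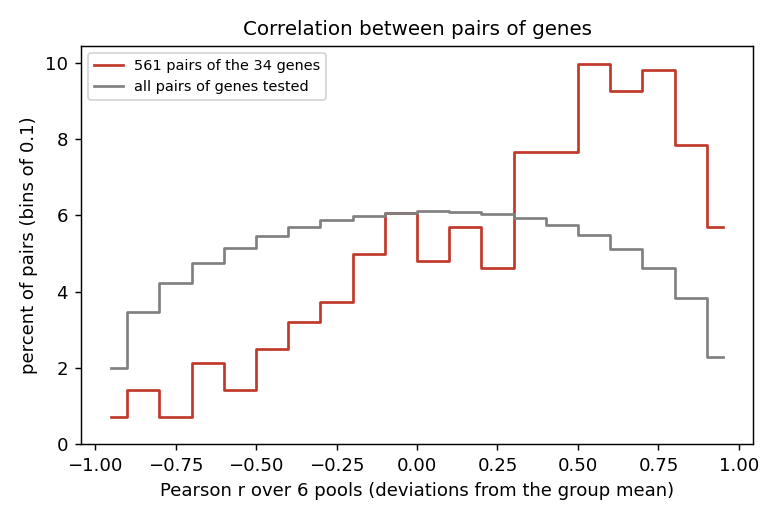
Distribution of Pearson r over the 6 pools (deviations from the group mean, horizontal axis) for the 561 pairs of the 34 genes and for all pairs of genes tested, in percent of pairs. The members' pairs centre near 0.40 and all pairs near 0.022.

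Krt5, Cdh1, Grhl3, Trp63, Dsp and Esrp1 followed the rest closely, at 0.93, 0.93, 0.93, 0.91, 0.91 and 0.91. Epcam (-0.49), Rab25 (-0.26), Prss8 (0.01), Krt18 (0.08), Tfap2c (0.19), Krt19 (0.24), Krt8 (0.27) and Spint1 (0.29) did not. These include 5 of the 7 members with an unadjusted p under 0.05, all but Tfap2a and Krt15. The p and this r both use a gene's deviations within its groups. A small spread within groups lowers p and can also lower r, so the overlap is not a separate result.

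Further epithelial lists gave a check on breadth. Of 25 other junction genes, 13 were higher and 12 lower, with a median change of 0.0019 and 0 past the test; the smallest p was that of the claudin gene Cldn12 (-0.20, limma adjusted p = 0.363). Of 12 hemidesmosome and basement membrane genes, 9 were higher and the median was 0.10, with the smallest p for Fras1, an extracellular matrix gene of the epidermal base (-0.26, adjusted p = 0.541). Their score was 0.079, 0.046 and -0.03 in Lmx1b-/- pools 1 to 3, against -0.18, 0.033 and 0.055 in wild-type pools 1 to 3, in much the order of the ectoderm score. Without wild-type pool 1 their median change was -0.00016. Of 14 other ectoderm regulators, 7 were higher and 7 lower, with the Notch ligand gene Jag2 at 0.21 (adjusted p = 0.493). Of 23 other epithelial genes, 18 were higher, with a median change of 0.12 at a median level of 4.24, and the smallest p was that of Macc1 at -0.46 (adjusted p = 0.296).

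The apical ridge is the thickened ectoderm at the tip of the bud, whereas the proximal part was taken here, and its genes are partly used in mesenchyme too. Of 12 such genes, 11 were higher and 0 passed, with a median change of 0.21. Fgf9, a growth factor gene, had the smallest p (0.45, limma adjusted p = 0.102). Fgf8, which defines the ridge, read 4.87, 5.04 and 4.89 in Lmx1b-/- pools and 4.45, 4.63 and 4.87 in wild-type pools, inside the range of the genes a limb bud should not use. The ridge list's score was 0.11, 0.15 and 0.085 in Lmx1b-/- pools, against -0.26, -0.073 and -0.011 in wild-type pools, without overlap. Wnt7a of the dorsal ectoderm stood at 0.17 (adjusted p = 0.573), and its dimmer probe sets at -0.04 and 0.12, so its direction is uncertain. En1 of the ventral ectoderm stood at 0.15 (adjusted p = 0.596), at 2.71 in Lmx1b-/- pools and 2.56 in wild-type pools, near the bottom of the range.

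Markers of other tissues moved with wild-type pool 1 as well. The score of 10 muscle genes was -0.42 in that pool, against 0.21, 0.061 and 0.22 in Lmx1b-/- pools 1 to 3 and 0.017 and -0.087 in wild-type pools 2 and 3. The score of 7 Schwann cell and neural crest genes was -0.29 there, in a range of -0.12 to 0.18 elsewhere. Endothelial genes did not share this order: their score in wild-type pool 1 was 0.11, above all Lmx1b-/- pools, which ran from -0.16 to -0.11. The 14 mesenchymal genes scored -0.061 in wild-type pool 1, with Lmx1b-/- pools at -0.05 to -0.011 and the other wild-type pools at 0.064 and 0.07. Hypoxia and glycolysis genes stood apart in wild-type pool 3, at 0.77, where the ectoderm score was 0.0049. The part of these markers in the ectoderm values was not tested.

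**Figure D5:**
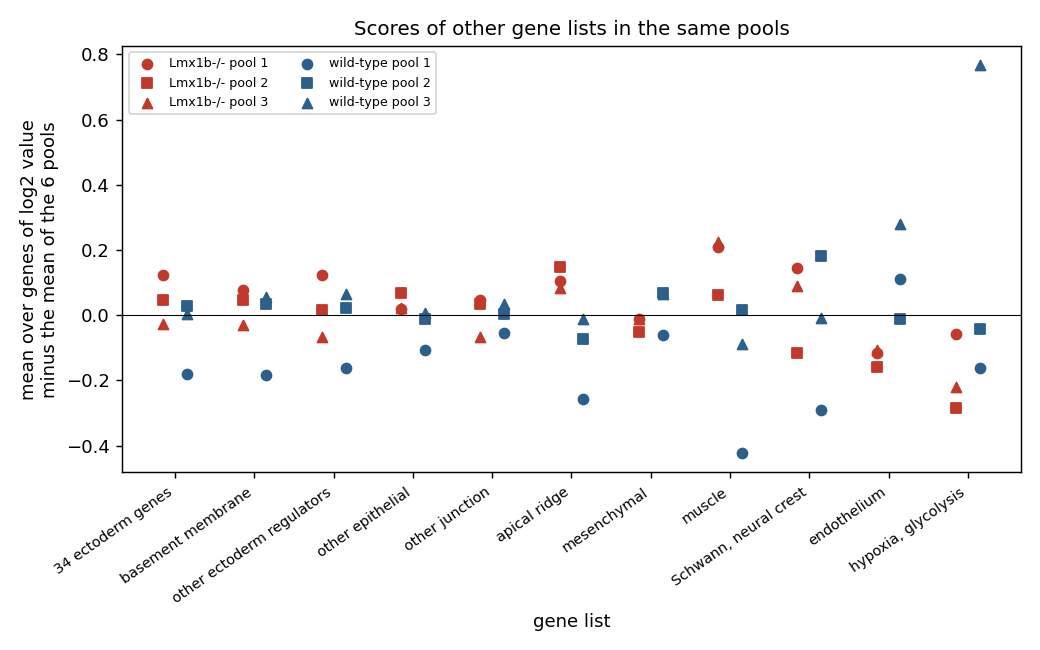
Score of each pool (vertical axis, log2 units) for the 34 ectoderm genes and 10 other lists, with Lmx1b-/- pools in red left of wild-type pools in blue. Wild-type pool 1 is lowest for the ectoderm, basement membrane, other ectoderm regulator, other epithelial, ridge, mesenchymal, muscle and Schwann cell lists. It is not lowest for the other junction, endothelium, and hypoxia and glycolysis lists.

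Other epithelia that a cut near the trunk could bring were looked for by their own markers. None of these genes passed the test between the groups, which does not decide whether such tissue was present. Of 8 nephric duct genes, Pax8, Lhx1 and Cdh16 had means of 3.03, 3.01 and 4.38, inside the range of genes a limb bud should not use. Of the 8, 4 were higher and 4 lower. Ret and Pax8 lay without overlap above wild type (0.33 and 0.16, limma adjusted p = 0.381 and 0.546). Emx2, which limb girdle mesenchyme also uses, had the smallest p (-0.97, limma adjusted p = 0.0922). Of 7 mesothelial genes, Upk3b, Msln and Lrrn4 had means of 3.82, 3.07 and 3.00, and Wt1 and Upk1b of 4.40 and 5.45. Gpm6a had the smallest p of that list (-0.47, adjusted p = 0.28). Bnc1, which stratified epithelia also use, had the highest mean of that list, 6.10, and lay without overlap above wild type (0.70, adjusted p = 0.292). Of 8 endoderm genes, 4 were higher and 4 lower, with Foxa2 at 0.20 (adjusted p = 0.406) and a mean of 3.20. Shh, which limb mesenchyme also uses, had a mean of 6.94, and Hnf4a and Sox17 had means of 5.53 and 5.52. The score of the endoderm list ran from -0.026 to 0.061 in Lmx1b-/- pools and from -0.053 to -0.0020 in wild-type pools.

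Lists of other cells gave the following genes with the smallest p, none past the test. They were the repressor gene Zeb2 for mesenchyme (-0.54, limma adjusted p = 0.319; at 4.31 in Lmx1b-/- pools and 4.85 in wild-type pools), Msc for muscle (0.78, adjusted p = 0.15) and Tek for endothelium (-0.65, adjusted p = 0.0853). The remaining ones were Ldha for hypoxia and glycolysis (-0.39, adjusted p = 0.457), Hbb-y for the erythroid list (0.11, adjusted p = 0.564) and Mitf for Schwann cells and neural crest (-0.15, adjusted p = 0.601). Zeb1, which encodes a repressor known to bind E-boxes spelled CAGGTG, stood at -0.12. Its binding to the stretches printed above was not measured. Median changes were -0.051 for 14 mesenchymal genes, 0.38 for 10 muscle genes, -0.18 for 8 endothelial genes and -0.33 for 11 hypoxia and glycolysis genes. They were 0.047 for 7 erythroid genes, 0.11 for 7 Schwann cell and neural crest genes, and 0.062 for 21 genes that a limb bud should not use.

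The pools also differed in Xist, the transcript of the inactive X chromosome, which read 9.66, 9.16 and 10.79 in Lmx1b-/- pools against 4.68, 9.88 and 4.72 in wild-type pools. Xist was low in wild-type pools 1 and 3 only, so its level and the genotype cannot be fully told apart. The ectoderm scores of these pools were -0.18 and 0.0049, and the part of embryo sex in the scores was not tested. When Xist was added as a covariate, 20 of the 34 genes were higher (26 without it) and the median change was 0.031 (0.075 without it). With the covariate 4 of the 34 genes had an unadjusted p under 0.05, and 3 of these were higher (limma). Over all genes 6.00% had such a p in either direction in that fit. Of the members, 0 passed the adjusted threshold.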

How the data were processed

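Each of the 6 pools was hybridised to 1 array. Per the submitters' processing notes the authors summarised the arrays with RMA, which corrects background, normalizes between arrays by quantiles and gives 1 value per probe set. The deposited values are read here as log2 because RMA writes that scale and their range fits it; no label states the base. RMA gives arrays near-equal distributions and compresses differences between dim values. Symbols came from the platform annotation: 34945 of 45037 probe sets other than controls had exactly 1. For 18193 genes the probe set with the highest mean over the 6 arrays was kept.

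The group comparison used lmFit and eBayes of limma (version 3.58.1, R version 4.3.3), two-sided, with Benjamini-Hochberg adjustment over all genes and a threshold of 0.05. The same fit was run over all probe sets. Changes are Lmx1b-/- minus wild type. The smallest p that exact permutation allows for a single gene at this group size is 0.1. The fit was tested on simulated data. The number of arrays limits the precision, and the median standard error was 0.078.

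The members, the 16 further lists and the tests were chosen with earlier results of these data known. Named were all members, Lmx1b, Wnt7a, En1, the gene with the smallest p of each further list, and the members most and least correlated with the rest. Other genes named were chosen after their values were seen. A pool's score is the mean, over a list, of the log2 value minus the gene's mean over the 6 pools. Motifs were searched in RefSeq promoter sequences of GRCm38.p6. Alternatives covered the variance model, array weights, scaling, choice of probe set, a filter on dim genes, the pool number as a block, the Xist level as covariate, the threshold and leaving out pools. Same-numbered pools deviated from their group means with correlations of -0.26, -0.095 and -0.15, so these values gave no sign of pairing by number. With so few pools in each group, they cannot decide whether same-numbered pools shared a litter or a batch. The labels name no batch.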

Additional observations from a re-analysis of the deposited data

How the results depend on the processing

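Over 18 alternatives, none of the 34 ectoderm and junction genes passed the adjusted threshold (limma; smallest adjusted p 0.117, for Tfap2a with array weights; 0.747 at most for that gene). The change of Tfap2a ran from 0.42 to 0.59. Of 571 member values under an alternative, 69 had the sign opposite to that in the fit of all pools; they fell on 21 genes, the largest at a change of 0.164 in size (Dsp), and 13 genes had no such value. The count of all genes called, 19 as reported, was 36 with an intensity trend, 36 with array weights, 47 at an adjusted p under 0.1, and 5 with the Xist level as covariate. It was 9 with the pool number as a block (replicate block), where no member passed. Leaving out 1 pool gave 4 to 37 called genes: 4, 10 and 9 without Lmx1b-/- pools 1 to 3, and 37, 7 and 7 without wild-type pools 1 to 3. The median r among members ran from 0.27 without wild-type pool 1 to 0.48 without wild-type pool 2. The median change of the members, 0.075, was 0.058 with arrays centred on their median, 0.090 with quantile normalization repeated, 0.053 with the mean over probe sets, 0.059 without probe sets shared between transcripts, 0.10 for genes with a mean of at least 5 and 0.038 with array weights. The score difference, 0.096, was 0.080, 0.11, 0.094, 0.098 and 0.11 under the first 5 of these. Leaving out 1 pool gave a score difference of 0.031 (without wild-type pool 1) to 0.14 and a median change of 0.0059 to 0.12. Without wild-type pool 1 and Lmx1b-/- pool 3 together, chosen after seeing the data as the lowest pool of each group, 24 genes were higher, the median change was 0.045 and the score difference 0.068. The cause of these differences was not tested. Of the members, 19 had means within the range of genes that a limb bud should not use (10 without the highest of these, Prm1), where signal over background is uncertain.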
